A study of Mus musculus with 22 samples.

Results

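The imprinted genes Peg3, Usp29, Peg10, Sgce, Snrpn, Peg13, Impact, Slc38a4 and Cdh15 were followed through all 22 forebrain methylomes of the series. The 9 genes form 7 loci, because Peg3 and Usp29 start next to each other on opposite strands, as do Peg10 and Sgce. CpGs were taken within 5 kb of any annotated transcription start site of these genes. Of 2095436 autosomal CpGs with at least 10 reads in any sample, 219 lay in these windows, and 89 of them had a value in at least 5 control and 5 EtOH-exposed samples. Of these 89, 47 were at 30 to 70% in the mean of the control embryos and are called half-methylated here.

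The libraries were made by rapid reduced representation bisulfite sequencing (rRRBS), in which DNA is cut with MspI at CCGG, treated with bisulfite and sequenced from the fragment ends. Each library came from the forebrain of 1 wild-type C57BL/6 embryo at E10.5. The 6 controls came from dams injected with saline at E2.5, and the 16 EtOH-exposed embryos from dams that received 2 ethanol injections of 2.5 g/kg, 2 h apart, on the same day. Per the methods, the embryos had no visible malformation, came from 3 control and 6 exposed litters, and were of both sexes. The labels do not tie a library to a litter or a sex, so embryos were treated as independent and p-values measure the spread between these libraries. The mice are of a single inbred strain and parental alleles were not told apart, so every level is the share of methylated reads from all cells and both alleles. A reduced level could therefore stand for fewer cells with a methylated allele or for an allele that is partly methylated in each cell, and these cannot be told apart. No expression was measured in these libraries, so the tissue label was not checked against markers.

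Imprinted genes are expressed from the maternal or the paternal chromosome only. Their choice of allele follows a differentially methylated region whose methylation is laid down in the egg or the sperm and is then kept through the wave of demethylation that passes over the preimplantation embryo. The regions of Peg3, Peg10, Snrpn, Peg13 and Impact are methylated on the maternal chromosome, so a tissue in which the mark is intact shows methylated and unmethylated reads in about equal numbers. The KRAB zinc finger protein ZFP57 binds the methylated hexamer TGCCGC and takes part in keeping the mark.

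The libraries held from 68126469 to 216223892 CpG read calls. They stood apart from each other in a measure that could bear on every level given here. For each library, the coverage of 6416 MspI fragments was regressed on the control methylation of the fragment, with fragment length, GC content and CpG number in the fit. The resulting coverage coefficient is the log2 coverage of a fully methylated against an unmethylated fragment, relative to the controls. It lay between -0.23 and 0.37 in the controls and between -2.89 and 0.11 in the EtOH-exposed libraries (exact permutation p = 0.0196). EtOH-exposed 4, 5, 6 and 14 had the lowest coefficients, at -2.52, -2.53, -2.89 and -2.01. EtOH-exposed 4, 5 and 6 also had 2.41 to 2.54% methylation at tiles that were unmethylated across the series, against 0.260 to 1.52% in all other libraries. At 5365 half-methylated 100-bp tiles outside the members and 19 other imprinted genes, 4 of them at the neighbouring genes Magel2 and Mkrn3, the level of the 6 controls averaged 52.9% ± 1.10 (SD), while the 16 exposed embryos averaged 47.7% ± 5.78 (exact permutation p = 0.0445). In this mean over all the tiles, 11 of the 16 exposed embryos were lower than any control.

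The sequences below show the letters behind measured regions of Snrpn, Peg13 and Slc38a4 that results turn on. They are given on the minus strand, on which these genes are transcribed, from the RefSeq GRCm38 assembly, the build of the deposited positions. Capitals mark CpGs with a value in at least 5 samples of each condition. The first is the upstream side of the Snrpn start site that lies in the Prader-Willi imprinting centre, with its single measured CpG (chr7:60005200-60005449).
Snrpn promoter: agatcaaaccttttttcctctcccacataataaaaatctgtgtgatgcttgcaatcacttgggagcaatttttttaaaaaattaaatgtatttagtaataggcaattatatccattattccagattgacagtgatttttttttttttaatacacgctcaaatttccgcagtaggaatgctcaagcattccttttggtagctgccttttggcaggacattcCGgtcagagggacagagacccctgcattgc
The next is the MspI fragment of 70 bases in Snrpn intron 1 (chr7:60004580-60004649).
Snrpn intron: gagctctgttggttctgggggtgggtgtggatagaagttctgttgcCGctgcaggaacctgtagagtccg
Peg13 has a single non-coding exon, and neighbouring fragments of it had control means of 57.5 and 39.1% (chr15:72809700-72809765 and chr15:72809784-72809879).
Peg13 1: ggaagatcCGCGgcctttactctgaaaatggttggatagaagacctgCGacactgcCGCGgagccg
Peg13 2: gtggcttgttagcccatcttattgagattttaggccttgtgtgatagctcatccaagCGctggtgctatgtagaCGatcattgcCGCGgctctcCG
The last is the Slc38a4 fragment whose mean lay just below 30% in controls, and where 12 of 16 exposed embryos were lower than any control (chr15:97055184-97055319).
Slc38a4 2: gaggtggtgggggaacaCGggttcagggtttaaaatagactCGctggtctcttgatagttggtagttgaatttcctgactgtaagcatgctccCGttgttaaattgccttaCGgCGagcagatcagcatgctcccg

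The hexamer TGCCGC was searched on both strands in 300-base windows centred on the measured stretches of Peg3, Peg10, Snrpn, Peg13 and Slc38a4; Impact was not searched. It was found 2 times at Peg3, 2 times at Snrpn exon 1, and 2 and 3 times in the overlapping windows of the Peg13 fragments, while 0 matches lay in the windows of Peg10 and of both Slc38a4 stretches. Among 32851 promoter windows of the same length in the RefSeq table, 11.6% held it. The letters CCATNTT, a core of the YY1 site, were found 2 times in each Peg13 window and in 0 of the other windows searched, against 16.1% of the promoter windows. 5 of the 9 genes have a promoter entry in that table, namely Peg3, Usp29, Snrpn, Slc38a4 and Cdh15.
5 measured CpGs lay inside a TGCCGC match. The CpG in the Snrpn intron fragment at 60004602 was at 45.5% ± 7.70 in controls and 26.5% ± 13.6 in EtOH-exposed samples. The CpGs at 60005123 and 60005199 in Snrpn exon 1 were at 34.7% ± 8.71 and 35.6% ± 8.96 in controls, against 16.9% ± 12.2 and 17.2% ± 12.5. In Peg13, the CpG at 72809708 was at 57.1% ± 10.1 against 44.2% ± 19, and the CpG at 72809794 at 38.9% ± 6.10 against 39.6% ± 13.1 (SD, n = 5 or 6 controls and 16 exposed).

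Half-methylated CpGs lay within 618 bases of a start site, except at Impact. At Peg3/Usp29, Peg10/Sgce and Peg13, all 4, 12 and 12 CpGs with enough samples were half-methylated. No other CpG could be classed at these loci, so the positions there follow where reads fell. The 4 of Peg3/Usp29 lay 92 to 140 bases after the nearest Peg3 start site, in the 5′ UTR exon 1 of Peg3 and within the promoter kilobase of Usp29 (chr7:6730279-6730327), and their control means were 51.2 to 56.0%. The 12 of Peg10/Sgce lay 49 to 178 bases after the Peg10 start site in its 5′ UTR exon 1, which is also upstream of Sgce (chr6:4747355-4747484), at 55.2 to 58.3%. The 12 of Snrpn reached from 29 bases before to 597 bases after a start site, over the promoter, exon 1 and intron 1 (chr7:60004602-60005228), at 33.5 to 45.5%. The 12 of Peg13 lay 444 to 618 bases into its exon (chr15:72809706-72809880), at 38.3 to 66.8%.
Slc38a4 had 6 in separate places. Those at exon 1 of a downstream transcript (chr15:97049990-97050090) were at 51.3 to 64.0%, and a stretch at -290 to -406 bases from another start site, in intron 1 of a longer transcript (chr15:97055204-97055320), was at 27.4 to 30.7%, of which only the CpG at 97055207 passed the bound. The threshold thus ran through that stretch, with 30.7% just inside and 29.8% just outside. Impact had 32 CpGs with enough samples, but only the CpG at 12973131, at 33.9% and 1208 bases after the nearest start site, was at or above 30%. Its other intronic CpGs up to 12973469 were at 18.5 to 28.0%, while 6 CpGs in its first exon were at 3.47 to 11.1%. At Cdh15, 0 of 7 CpGs with reads had enough samples.

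**Figure D1:**
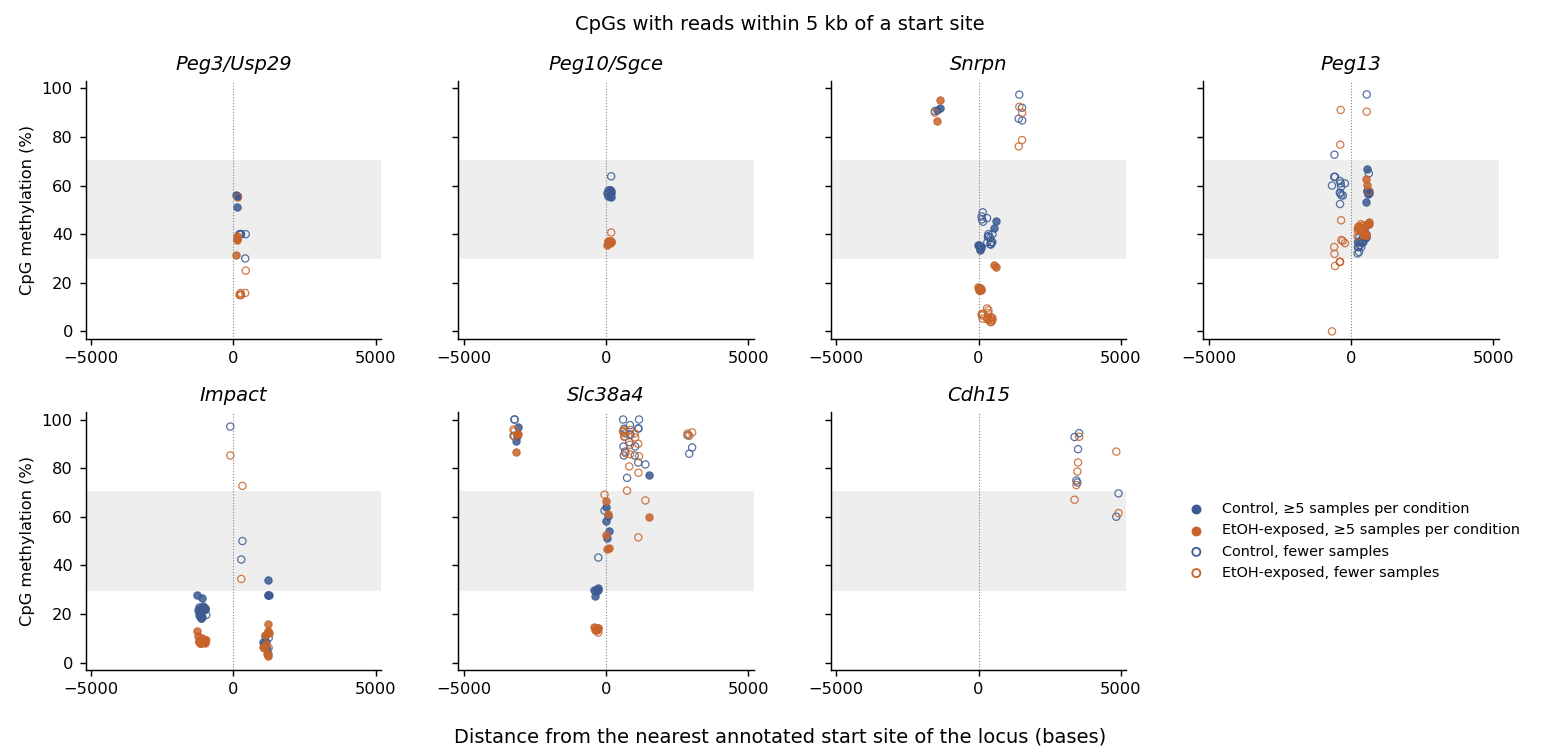
Each point is the mean methylation (%) of a CpG in the controls (blue) or EtOH-exposed samples (orange) against its distance in bases from the nearest annotated start site of its locus; filled points had a value in at least 5 samples per condition, open points in fewer, and the grey band marks 30 to 70%. The half-methylated CpGs of Peg3/Usp29, Peg10/Sgce, Snrpn, Peg13 and Slc38a4 lie near start sites. At Peg3/Usp29, Peg10/Sgce and Peg13 no other CpG had enough samples to be classed. The Impact CpGs lie mostly below the band, and 5 of the 7 Cdh15 control means lie above it.

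A locus level was computed for each embryo over the half-methylated CpGs of the locus, aligned to the control means so that a missing CpG did not shift it. An embryo was left out of a locus where the CpGs without a value outnumbered those with one. Levels were compared between the groups by an exact two-sided permutation test of the difference in means, at 5 loci, and the p-values are not adjusted. CpGs of the same fragment share reads and are not independent, so the embryo is the unit throughout.

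Peg3 encodes a zinc finger protein that is expressed from the paternal allele, and Usp29 a deubiquitinating enzyme expressed from the same allele. Across their shared promoter region, the control embryos were at 48.3, 54.5, 70.3, 53.0 and 46.8% (Control 6 had too few reads). The exposed embryos ranged from 16.6 to 55.4% with a median of 36.8%. 11 of these 15 were lower than any control and 0 were higher than all of them. Controls averaged 54.6% ± 9.34 (SD, n = 5) and exposed embryos 36.8% ± 13.4 (SD, n = 15), a difference of -17.8 points (exact permutation p = 0.0148). Without Control 3, the highest, the difference was -13.8 points (exact permutation p = 0.0627). With the coverage coefficient as a covariate it was -10.1 points (permutation p = 0.137). Within the 5 controls and 6 exposed embryos of similar library background it was -17.0 points (exact permutation p = 0.106). Such libraries were alike in their level at unmethylated tiles only. Their coverage coefficients reached below those of the controls, with EtOH-exposed 8 at -1.03 and EtOH-exposed 11 at -0.72. Reads at this locus were uneven, with 11 reads per CpG in EtOH-exposed 4 and 5 and 311 in Control 2.

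Peg10 is a retrotransposon-derived gene that the placenta requires, and Sgce encodes epsilon-sarcoglycan. Their region showed the widest range of the loci. Control embryos were at 61.7, 56.8, 60.8, 61.0 and 45.5% (Control 2 had too few reads). EtOH-exposed 4, 5, 6 and 14 were at 4.66, 3.47, 2.28 and 5.09%, so that nearly all reads were unmethylated there, while EtOH-exposed 3 was at 81.8%. Of the 16 exposed embryos, 8 were lower than any control and 4 were higher than all controls. The 4 lowest had 329, 308, 211 and 94.6 reads per CpG in the MspI fragment that holds 11 of the 12 CpGs, and there EtOH-exposed 4 was at 4.47% with a Wilson 95% interval of 2.78 to 7.39%. EtOH-exposed 3 had 17.8 reads per CpG and was at 82.7% in the fragment, with an interval from 60.8 to 94.2%. The intervals reflect the number of reads alone, because PCR copies of 1 molecule count as separate reads.
The group means of Peg10/Sgce, 57.2% ± 6.79 (SD, n = 5) and 36.6% ± 26.7 (SD, n = 16), differed by -20.5 points, which the spread between embryos does not separate from 0 (exact permutation p = 0.107). The spread itself was larger in exposed embryos. The mean distance to the group's own median was 19.7 points larger (permutation p = 0.00113), and the SD was 3.94 times that of the controls. The medians were set before the distances were permuted, so p-values of spread are approximate. With any 1 exposed embryo left out, the permutation p was 0.0114 to 0.0188. At the other loci tested, the difference in spread was 5.33 points at Peg3/Usp29 (permutation p = 0.138) and 5.81 points at Snrpn (p = 0.103). It was 6.66 points at Peg13 (p = 0.0527) and 0.901 points at Slc38a4 (p = 0.447). Without EtOH-exposed 4, 5 and 6 the Peg10/Sgce difference in spread was 15.1 points (permutation p = 0.0298). The level difference with the coverage coefficient as covariate was 0.125 points (permutation p = 0.988), and within similar library background it was -7.83 points (exact permutation p = 0.402, n = 5 and 7).

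Snrpn encodes a core protein of spliceosomal particles, and its promoter and first exon form part of the centre that sets the imprint of the Prader-Willi and Angelman domain. Among the level differences of the 5 loci tested, this one had the smallest p. The controls were at 39.7, 25.8, 42.2, 34.8 and 38.9% (Control 2 had too few reads), and the exposed embryos ranged from 2.65 to 35.5% with a median of 22.6%. 11 of the 16 were lower than any control, and 0 exceeded the highest control. The count was also 11 for the mean of each embryo over the 5365 half-methylated tiles elsewhere. That mean varied less between controls (SD 1.10) than the Snrpn level (SD 6.43), so the counts are not like for like. The averages of 36.3% ± 6.43 (SD, n = 5) and 19% ± 11.9 (SD, n = 16) differed by -17.3 points (exact permutation p = 0.00619). The difference was -13.9 points without EtOH-exposed 4, 5 and 6 (exact permutation p = 0.0144), -11.3 points within similar library background (exact permutation p = 0.0215, n = 5 and 7) and -7.32 points with the coverage coefficient as covariate (permutation p = 0.0385). Expressed relative to each embryo's own deviation at half-methylated tiles elsewhere, it was -11.9 points (exact permutation p = 0.00280). Snrpn was the only locus tested whose level differed at an unadjusted p under 0.05 in each of these analyses. Leaving out EtOH-exposed 4, 5 and 6, the library group and the covariate were chosen after seeing the data. As no control had a coefficient below -0.23, the covariate fit cannot tell exposure and library coverage apart. With the replicate block, which is not among these analyses, the Snrpn difference was -21.5 points (exact permutation p = 0.125). The exon 1 fragment held 9 of the 12 CpGs, at 34.7% ± 7.87 against 17.3% ± 12.2 (exact permutation p = 0.00806, n = 5 and 16), and there the covariate gave -7.62 points (permutation p = 0.0653). With CpGs of 5 to 9 reads admitted, Control 2 had a value of 73.0%, against 25.8 to 43.1% in the other controls. The difference then became -24.0 points (exact permutation p = 0.000550, n = 6 and 16). Control 2 had values in exon 1 only from CpGs with so few reads. In the intron tile chr7:60004601-60004700 it was at 46.1% from 432 reads.

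Longer MspI fragments next to these had reads in few libraries, Control 6 and some or all of EtOH-exposed 4, 5, 6 and 16. They are given as values, with no test and a single control. Over 12 CpGs of Snrpn intron 1 (chr7:60004711-60004893), Control 6 was at 37.8% (Wilson 95% interval 24.8 to 55.1%). EtOH-exposed 4, 5 and 6 were at 1.07, 2.22 and 2.39%, and EtOH-exposed 16 was at 16.1%. Over 3 CpGs of exon 1 (chr7:60005042-60005079), Control 6 was at 46.7%, and the same exposed embryos were at 4.58, 2.75, 3.21 and 14.8%. Each exposed embryo was thus below Control 6 in both fragments. In the same 5 libraries, 16 CpGs of the Peg13 exon (chr15:72809891-72810086) were at 36.3% in Control 6 and at 38.5, 37.8, 44.7 and 49.2% in EtOH-exposed 4, 5, 6 and 16. These 4 values lay above Control 6 in that fragment. In the neighbouring fragment Peg13 2, Control 6 was at 36.5% and EtOH-exposed 4, 5, 6 and 16 were at 36.9, 37.5, 27.8 and 42.0%. It was different again upstream of the Peg13 start site, where 6 CpGs (chr15:72810713-72810919) were at 61.9% in Control 6, 8.91% in EtOH-exposed 5 and 50.9% in EtOH-exposed 16. At Peg3 intron 1 (chr7:6729987-6730205), Control 6 was at 38.6% (interval 16.8 to 68.7%) and EtOH-exposed 5 at 17.6% (8.07 to 41.6%). Away from the imprinting centre, the Snrpn fragment at chr7:60169427-60169544 was at 92.3% in Control 6 and 71.5 to 90.2% in EtOH-exposed 4, 5 and 16.

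Peg13 is a non-coding RNA gene within Trappc9 that is expressed in brain from the paternal allele. Its locus level was 44.6 to 59.9% with a median of 48.0% in 6 controls and 27.4 to 70.2% with a median of 41.3% in 16 exposed embryos. 9 exposed embryos were lower than any control and 2 were higher than all of them. The averages of 50.1% ± 5.78 and 45.1% ± 13 (SD) differed by -4.95 points (exact permutation p = 0.382). The direction of the level difference was not stable, since it was 5.27 points within similar library background (exact permutation p = 0.299, n = 6 and 7) and 1.23 points with the coverage coefficient as covariate (permutation p = 0.829).
The fragments of the exon gave different values. Peg13 1 was at 56.7, 56.1, 42.7, 70 and 62.0% in the 5 controls with reads and at 44.2% ± 16.7 in exposed embryos (difference -13.2 points, exact permutation p = 0.112, n = 5 and 16). Peg13 2 was at 39.1% ± 4.95 and 39.7% ± 13.2 (difference 0.596 points, exact permutation p = 0.917, n = 6 and 16), with EtOH-exposed 10, 11 and 13 at 57.3, 61.5 and 63.4%. Within similar library background, Peg13 2 was 11.5 points higher in exposed embryos (exact permutation p = 0.0262, n = 6 and 7). The difference between both fragments in the same embryo was 17.8 points ± 10.6 in 5 controls and 4.52 points ± 14.8 in 16 exposed embryos (exact permutation p = 0.0799). Upstream of the start site, the tile chr15:72810601-72810700 was at 61.8, 45.8, 63.0, 54.3 and 60% in controls. In 13 exposed embryos it was at 38.9% ± 15.7 (exact permutation p = 0.0244), with EtOH-exposed 2 at 3.85% from 26 reads. The exon tiles chr15:72809701-72809800 and chr15:72809801-72809900 gave exact permutation p = 0.736 and 0.893. The upstream tile was not tested within similar library background or with the covariate.

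Impact encodes a regulator of the translational kinase GCN2 that is abundant in neurons, and is expressed from the paternal allele. Its differentially methylated region lies in intron 1. The CpG that passed 30% was at 23.8, 23.1, 45.2, 33.3 and 44.0% in controls and at 16% ± 16.9 (SD, n = 16) in exposed embryos, with EtOH-exposed 5, 6 and 14 listed at 0% and EtOH-exposed 1 and 12 at 52.9 and 46.8%. A single CpG was given no test. Its difference of -17.9 points was -7.67 points with the coverage coefficient as covariate. The MspI fragments of the intron, defined after these values were seen, cover 23 CpGs. In the first (chr18:12973140-12973197), controls were at 22.2, 16.9, 32.5, 33.8 and 33.7%, and exposed embryos at 12.7% ± 14.3 with a median of 7.82%. 13 of 16 exposed embryos were below the lowest control, and EtOH-exposed 1 and 12, at 45.3 and 44.9%, were above the highest. The difference was -15.2 points (exact permutation p = 0.0330, n = 5 and 16), and -18.8 points within similar library background (exact permutation p = 0.00126, n = 5 and 7). With the coverage coefficient as covariate it was -8.25 points (permutation p = 0.247). Without EtOH-exposed 4, 5 and 6 it was -12.9 points (exact permutation p = 0.0901), and relative to half-methylated tiles elsewhere -10 points (exact permutation p = 0.0790).
The second Impact fragment was as uneven in controls, at 3.64, 8.38, 24.7, 18.5 and 43.9%, as in exposed embryos, at 8.54% ± 12.3 (exact permutation p = 0.0997, n = 5 and 15). Its lowest control, Control 1, had 10 reads per CpG there. The third fragment was at 22.2% ± 9.55 and 8.83% ± 12.1 (exact permutation p = 0.0299, n = 5 and 16), with 12 of 16 exposed embryos below the lowest control, and EtOH-exposed 1 and 12 again at 36.2 and 36.6%. Its difference of -13.4 points was -12 points without EtOH-exposed 4, 5 and 6 (exact permutation p = 0.0859) and -8.82 points with the covariate (permutation p = 0.167). Within the same embryo, the first fragment exceeded the second by 16.8 points ± 6.32 in 4 controls. In 15 exposed embryos it did so by 4.56 points ± 5.14 (exact permutation p = 0.00129). With exposed medians of 7.82 and 3.08%, both fragments were near 0 in many exposed embryos. This limits how far they can differ there, so the contrast does not show that 1 fragment changed more. The first fragment exceeded the third by 11.9 points ± 10.8 in 4 controls and 3.83 points ± 4.16 in 16 exposed embryos (exact permutation p = 0.0225). Without EtOH-exposed 4, 5 and 6 the exact permutation p was 0.0546, and with the covariate the permutation p was 0.0859. The contrast of the second and the third fragment differed by 1.73 points between the groups (exact permutation p = 0.652, n = 5 and 15). Tiles in the first exon of the upstream Impact transcript were at 8.93% ± 3.82 and 7.37% ± 5.78 in controls. In exposed embryos they were at 8.05% ± 2.96 and 5.84% ± 3.62, and they were not called.

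Slc38a4 encodes a neutral amino acid transporter and is expressed from the paternal allele, chiefly in placenta and early embryo. Its locus level did not separate the groups. Controls ranged from 45.8 to 61.9% with a median of 53.2%, and exposed embryos from 37.4 to 55.4% with a median of 48.5%, a difference of -5.42 points (exact permutation p = 0.0841, n = 6 and 16). The level mixes the exon 1 stretch with 1 CpG of the intronic one, and these behaved differently. Both lie in intron 1 of a longer transcript, and both are near a start site. The stretch called intronic is also in the promoter kilobase of its nearest start site. In the exon 1 stretch, controls were at 56.7% ± 5.91 and exposed embryos at 53.3% ± 5.94 (difference -3.37 points, exact permutation p = 0.248, n = 6 and 16). In the intronic fragment, controls were at 27.5, 20.3, 32.9, 26.0 and 40.5%, and exposed embryos at 13.9% ± 11.6 with a median of 10.8%. 12 of 16 exposed embryos were below the lowest control (difference -15.5 points, exact permutation p = 0.0120, n = 5 and 16).
The exon 1 stretch exceeded the intronic fragment of the same embryo by 25.6 points ± 10.4 in 5 controls and by 39.4 points ± 9.95 in 16 exposed embryos (exact permutation p = 0.0148). That contrast was 10.1 points with the coverage coefficient as covariate (permutation p = 0.0739). The intronic difference itself was -12.5 points within similar library background (exact permutation p = 0.0328, n = 5 and 7) and -7.39 points with the covariate (permutation p = 0.109). EtOH-exposed 4, 5, 6 and 14, at 2.9, 4.26, 1.72 and 2.40% in the intron, kept 41.6, 45.0, 49.5 and 47.2% in exon 1.

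**Figure D2:**
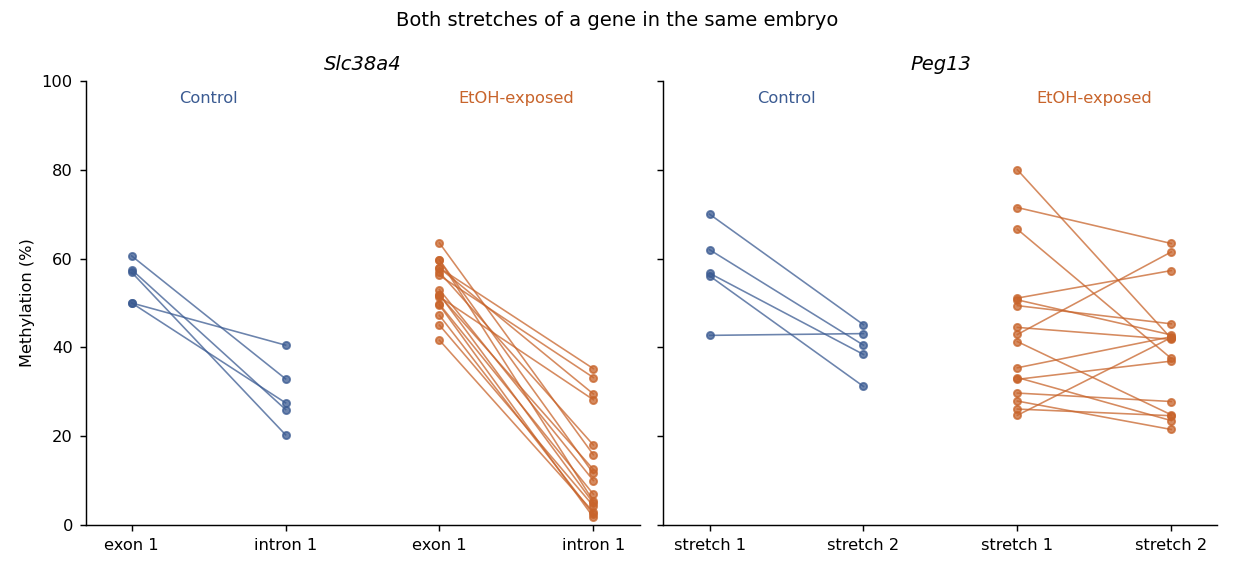
Each line joins the methylation levels (%) of both measured stretches of Slc38a4 (left) or of Peg13 (right) in the same embryo, controls in blue and EtOH-exposed in orange. At Slc38a4 exon 1 the exposed embryos sit at 41.6 to 63.5%. The intronic stretch, which is also upstream of another start site, is at 1.72 to 35.2% in them. At Peg13 lines cross in both groups, and the exposed embryos sit at 21.5 to 80%.

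Cdh15 encodes M-cadherin, an adhesion protein of muscle and cerebellum, and was covered only in intron 1, 3375 to 4921 bases after its start site. The CpGs with most samples, at 122851814, 122851849, 122851872 and 122851912 on chromosome 8, were at 74.9, 74.1, 87.8 and 94.4% in 4 controls and at 73.0, 78.6, 82.3 and 92.9% in 9 or 10 exposed embryos. The other 3 CpGs had 1 or 2 controls. The CpG at 122851749 was at 92.8% in the mean of 2 controls and 67% in that of 3 exposed embryos, all 3 of which were below both controls. At 122853217 and 122853295 the single control was at 60% and 69.6%, and 2 exposed embryos averaged 86.8 and 61.5%. None had enough samples to be classed, and no test was made.

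**Figure D3:**
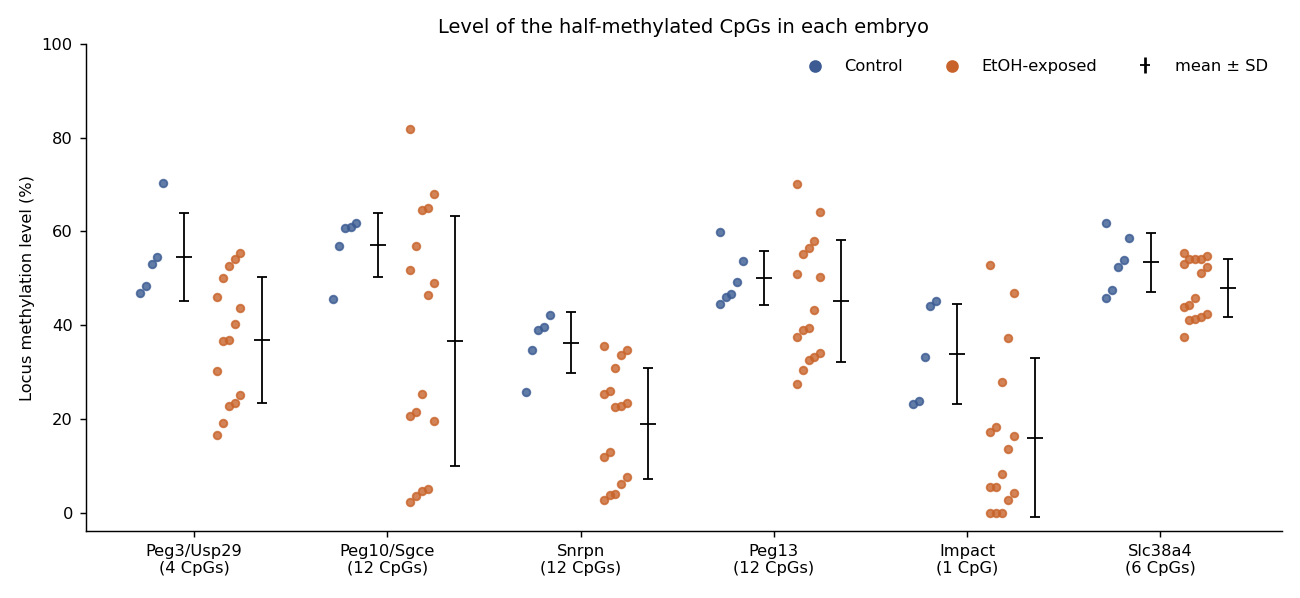
Points are the level (%) of the half-methylated CpGs of each locus in each embryo, controls in blue and EtOH-exposed in orange, with the number of CpGs under the locus name and black bars for the mean ± SD. At Peg10/Sgce the exposed embryos spread from 2.28 to 81.8%, at Snrpn from 2.65 to 35.5%, and at Slc38a4 from 37.4 to 55.4%.

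Across 100-bp tiles, which the study also used as its unit, the 9 genes had 18 tiles, 9 of them half-methylated. With a logistic test at q under 0.01 and a difference of at least 10 points, 6 of the 9 were called lower and 0 higher. Over all 18, 9 were called lower and 0 higher, the other 3 being the Impact tile chr18:12973101-12973200 and the Slc38a4 tiles chr15:97055201-97055300 and chr15:97055301-97055400, which lay below 30% in controls. Of all 114430 tiles tested, 1.08% were called lower and 0.0516% higher. Of all 5429 half-methylated tiles, 15% were called lower and 0.479% higher, and of the 5365 outside the members and the other listed imprinted genes, 14.4% and 0.485%. At 0 of the 18 member tiles did every exposed embryo lie below every control, which was so at 0.0201% of all tiles. In the other imprinted genes, 36 of 55 half-methylated tiles were called lower. The median difference was -16 points over the 9 tiles of the members and -4.19 points over these 5365 tiles.
The calls weigh each read and take no account of the spread between embryos. With a dispersion estimated per tile, an F test called 0 of the 9 tiles and 0% of all tiles, while 5 of the 9 had an unadjusted p under 0.05, as did 14.7% of all 5429 half-methylated tiles. limma on the embryo levels likewise called 0 of the 9 tiles and 0% of all tiles, with 3 at an unadjusted p under 0.05, against 13.4% of the 5429 tiles. The named tiles, chosen by the number of samples and reads, were as follows. The Peg10 tile chr6:4747401-4747500 was at 57.7% ± 7.76 and 36.9% ± 27.0, and was called. The Snrpn tile chr7:60005101-60005200 was called, at 34.7% ± 7.87 and 17.3% ± 12.2, as was the Peg3 tile chr7:6730201-6730300, at 54.4% ± 8.95 and 39.5% ± 16.5. The Peg13 tile chr15:72809701-72809800, at 50.6% ± 7.48 and 48.6% ± 13.6, and the Slc38a4 tile chr15:97050001-97050100, at 57.6% ± 6.12 and 55.2% ± 5.27, were not called. Besides the named tiles, the Peg13 tile upstream of the start site, chr15:72810601-72810700, was called lower (coverage-weighted difference -19.1 points). The SD was larger in exposed samples at 8 of the 9 tiles, and at 75.9% of these 5365 tiles.
Neighbouring genes of these domains, among them Zim1, Casd1, Ube3a, Magel2, Trappc9 and Slc38a2, had 57 tiles, of which 4 were half-methylated and 1, at Mkrn3, was called lower. The genes of factors known to keep methylation at imprints, Zfp57, Zfp445, Trim28, Dnmt1, Uhrf1 and Dppa3, had 23 tiles, 0 of them half-methylated and 0 called.

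The same embryos were low at several loci. EtOH-exposed 4, 6, 9 and 14 lay below the lowest control at 6 of 6 loci with a level, and EtOH-exposed 2 and 5 at 5 of 6. EtOH-exposed 7 and 10 did so at 1 of 6. EtOH-exposed 2, 4, 5, 6, 9 and 14 were also the lowest embryos at the 5365 half-methylated tiles elsewhere. There they were at 43.5, 39.7, 38.7, 38.9, 45.5 and 41.5%, against 51.7 to 54.7% in controls. Low levels in these embryos were thus not particular to the members. Over the 10 fragment stretches, EtOH-exposed 6, 9 and 14 were below the lowest control at 10, and EtOH-exposed 12 at 0. 6 of the 10 stretches were under 10% in each of EtOH-exposed 4, 5, 6 and 14, namely Peg10, Snrpn exon 1, the 3 Impact fragments and the Slc38a4 intron. None of these 4 embryos was under 10% at Peg3, at the Peg13 fragments or at Slc38a4 exon 1, where the lowest of their values were 13, 21.5 and 41.6%. Levels could lie far apart within an embryo, as in EtOH-exposed 5, with Peg10 at 2.84% and Peg13 1 at 66.6%. EtOH-exposed 11 was at 4.48% at Snrpn exon 1 and 61.5% at Peg13 2. In controls, levels under 10% were found only in the second Impact fragment, in Control 1 and Control 3.

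**Figure D4:**
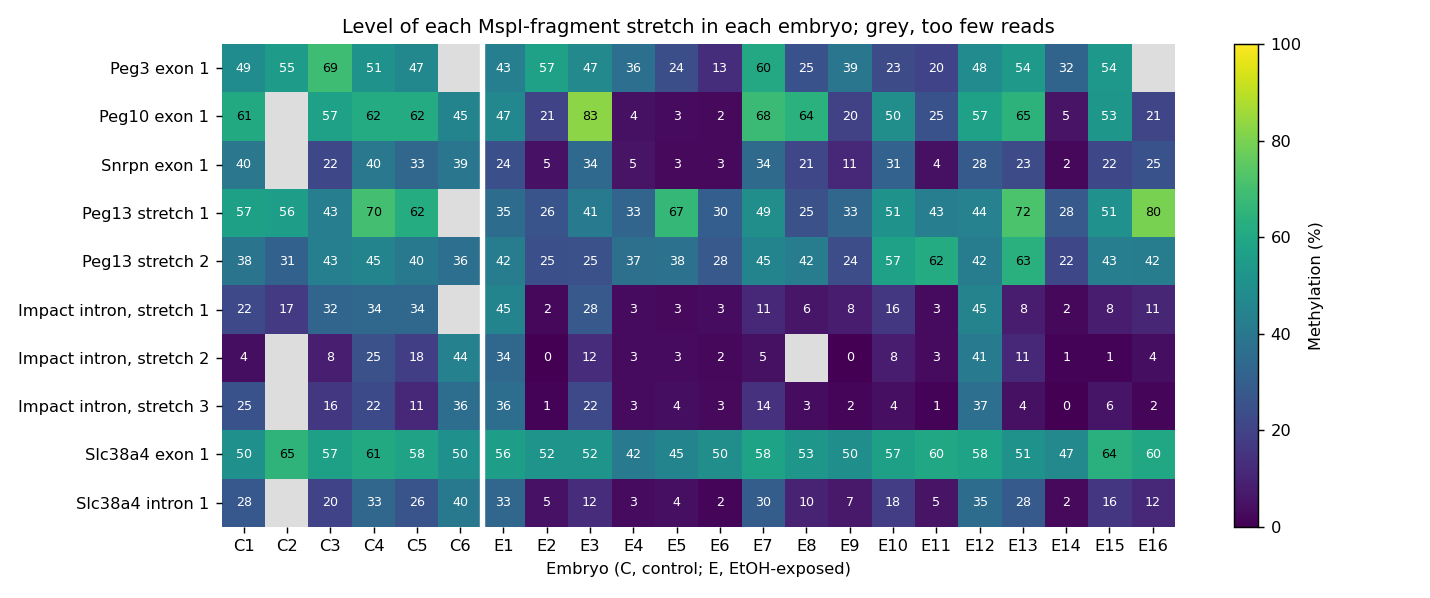
Methylation level (%) of each MspI-fragment stretch (rows) in each embryo (columns; C, control; E, EtOH-exposed), with grey where too few reads were present. EtOH-exposed 4, 5, 6 and 14 are at 0.234 to 5.19% at Peg10, Snrpn, the Impact fragments and the Slc38a4 intron and at 41.6 to 49.5% at Slc38a4 exon 1, and EtOH-exposed 1 and 12 are at 33.6 to 45.3% across Impact.

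The low embryos were also those whose libraries had the lowest coverage of methylated fragments. The 4 embryos at 2.41 to 5.19% at Peg10 had coefficients of -2.01 to -2.89, while EtOH-exposed 7, at 68.2%, had 0.11. EtOH-exposed 2, with a coefficient of -1.32, was at 20.7% at Peg10, 4.98% at Snrpn exon 1 and 4.92% in the Slc38a4 intron. The match was not complete, since EtOH-exposed 11 (-0.72) was at 4.48% at Snrpn exon 1 and EtOH-exposed 8 (-1.03) at 64.0% at Peg10. At Slc38a4 exon 1, the same 4 libraries of lowest coefficient were at 41.6 to 49.5%, against 50 to 65.0% in controls. The coefficient and the exposure are partly confounded in these libraries, because no control had a coefficient below -0.23, so a lower level in an embryo and a lower recovery of methylated molecules in its library cannot be told apart there.

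**Figure D5:**
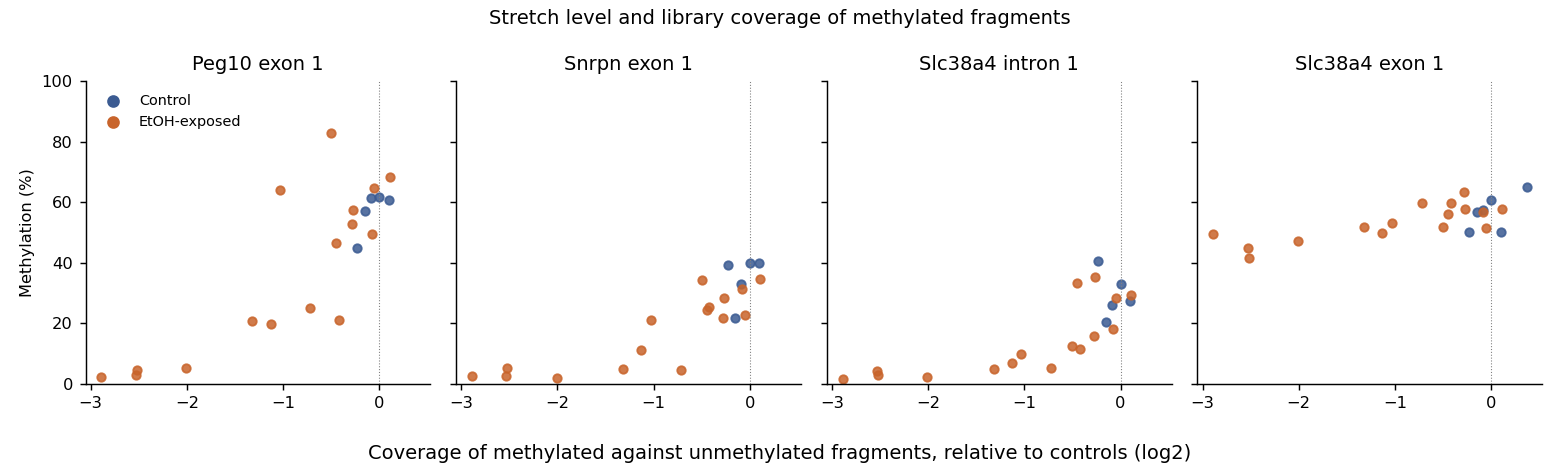
Methylation level (%) of 4 stretches in each embryo against the coverage coefficient of its library, the log2 coverage of methylated against unmethylated fragments relative to controls; controls are blue and EtOH-exposed orange, and the dotted line marks 0. At Peg10, Snrpn exon 1 and the Slc38a4 intron the libraries from -2.01 to -2.89 sit at 1.72 to 5.19%, and at Slc38a4 exon 1 the same libraries sit at 41.6 to 49.5%.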

How the data were processed

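DNA methylation was measured by rRRBS in 22 mouse forebrain samples, 6 Ctrl and 16 EtOH-exposed, grouped by the exposure given in the labels. Per the labels and the study's methods, the authors trimmed reads with Trim Galore 0.3.3 and aligned them to mm10 with BSMAP 2.90. The deposited coverage is a raw count of reads per CpG cytosine, with the strands listed apart. The deposited percent values give how many of them read as C or as T, rounded to 1 decimal by the authors. All 2809601 autosomal CpGs with reads lay at a CG of GRCm38.

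Methylated reads were recovered as coverage times percent. A strand was kept at 10 or more reads and kept strands were added. Autosomal CpGs with a value in at least 5 samples per condition were classed. Locus levels were compared by exact two-sided permutation tests, and with a covariate by permuting residuals. Spreads were compared by permuting the distances to the group's own median over all splits, which gives approximate p-values. Tiles of 100 bp with at least 2 CpGs on chromosomes 1 to 19 were tested by logistic regression with Benjamini-Hochberg adjustment over all tiles, and by an F test with dispersion per tile and limma 3.58.1 (R 4.3.3) as alternatives. Other steps used Python 3.11.15 and scipy 1.17.1. Scripts were tested on simulated data. Per locus, the named tile was the half-methylated tile with most samples, then most reads. Fragment stretches are CpGs inside 1 MspI fragment, outside CCGG, with at least 3 CpGs; they, the covariate, the library groups and the leaving out of EtOH-exposed 4, 5 and 6 were chosen after seeing the data. Libraries of similar background are those whose levels at unmethylated tiles follow each other within a factor of 1.3. They are all controls and EtOH-exposed 7, 8, 10, 11, 13, 15 and 16. With a factor of 1.2, Controls 3 to 6 shared a group with no exposed library, and Controls 1 and 2 only with EtOH-exposed 8. The coverage coefficient was not matched in the wider group. EtOH-exposed 8, 11, 15 and 16 had -1.03, -0.72, -0.28 and -0.42, below every control. Alternatives changed the read minimum (5 or 20), the bounds (20 to 80%), the averaging, the CpGs used, and left out each sample. The members and lists were chosen with earlier results of these data known. The number of embryos and the reads per CpG limit the precision.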

Additional observations from a re-analysis of the deposited data

Results flagged for a closer look

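In the Peg10 fragment, Control 6 was at 45.0%, and the other controls were at 57.1 to 61.6%. Its gap to the nearest control was 0.729 of the range of the 5 controls, past the limit of Dixon's test for a single value apart from its group. Control levels were screened in this way in 16 groups of values, 6 loci and 10 stretches, and chance alone marks about 1 in 20. The value rests on 80.6 reads per CpG (Wilson 95% interval 34.1 to 55.3%).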

How the results depend on the processing

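Over the locus levels with a test, 146 alternatives kept the direction and the side of the 0.05 threshold, 6 lost the call, 4 gained one and 6 turned the sign. Over the spreads the counts were 130, 0, 14 and 3, and over the stretches 34, 14, 4 and 4. A result that stayed above 0.05 counts as kept, and most level and spread alternatives left out 1 sample. Over the levels, Impact included, leaving out 1 sample kept 125 results, lost 1 call and gained 1. With the coverage coefficient as covariate, 2 locus levels were kept, 1 lost its call and 3 turned the sign. Impact, whose main value has no test, kept its direction in 31 level and 28 spread alternatives, but its level difference went from -17.9 to -7.67 with the covariate and its spread difference from 4.31 to 0.95 relative to other tiles. With bounds of 20 to 80% it held 18 CpGs and could be tested. The level difference was -15.7 (exact permutation p = 0.0156) and the spread difference 2.24 (permutation p = 0.742). The bounds chose CpGs by the control mean that then enters the test. They left out CpGs of the second fragment at 18.5 to 19.9% in the mean of the controls and 7.91 to 9.06% in that of exposed embryos. There 0 exposed embryos lay below the lowest control. Control 1 was at 3.64% over that fragment from 10 reads per CpG, which left little or no room below it. The causes were not tested. The Peg3/Usp29 level difference lost its call at 5 reads (-14.2), within the library group of limit 1.3 (-17.0) and with the coverage coefficient as covariate (-10.1). That of Peg10/Sgce gained a call at 20 reads (-25.9) and was 0.125 with the covariate. That of Peg13 was 0.000853 over CpGs present in all 22 samples, 0.199 relative to other half-methylated tiles, 5.27 within the library group and 1.23 with the covariate. That of Slc38a4 gained a call with bounds of 20 to 80% (-11.1), which adds the intronic CpGs, and without CpGs inside CCGG (-7.0), and was 0.301 with the covariate. The Peg13 spread difference passed the threshold without CpGs inside CCGG (6.56), relative to other half-methylated tiles (5.94) and without EtOH-exposed 4, 5 and 6 (7.16). That of Slc38a4 was -0.284 over CpGs in all samples and -0.395 without EtOH-exposed 4, 5 and 6. Relative to other tiles it was -2.52 (permutation p = 0.0404, a smaller spread in exposed embryos). Among stretches, calls were lost at Peg3 (5 of its alternatives), Impact 1 (3), Impact 3 (4, with 5 reads at p = 0.0734 and relative to other tiles at p = 0.134 by exact permutation), Snrpn exon 1 and the Slc38a4 intron (the covariate), and gained at Impact 2 (5 reads and library group), Peg13 2 (library group) and Peg10 (20 reads). Peg10 was 0.355 with the covariate, and Slc38a4 exon 1 was 0.780 within the library group, 1.77 relative to other tiles and 1.60 with the covariate. Against 6 of 9 tiles called lower, the count was 3 of the 6 half-methylated tiles left at 20 reads, and 0 of 9 with the F test and with limma. Leaving out 1 sample at a time gave level differences of -19.7 to -13.8 at Peg3/Usp29, lost without Control 3. They were -6.94 to -3.72 at Slc38a4, called without Control 6, and -6.62 to -2.98 at Peg13. The spread differences ran from 3.85 to 8.18 at Peg3/Usp29 and from 4.75 to 8.04 at Snrpn, both called without Control 3. They ran from 0.268 to 1.83 at Slc38a4 and from 2.18 to 5.15 at Impact, which has no test. At Peg13 they ran from 5.34 to 8.45 and passed the threshold in 9 of 22 cases (lowest permutation p = 0.0240). These were without Control 4, or EtOH-exposed 1, 2, 3, 4, 6, 8, 9 or 14. With the replicate block, the level difference was -14.6 at Peg3/Usp29 and -21.5 at Snrpn (exact permutation p = 0.0625 and 0.125), where 5 pairs allow no p below 0.0625, and 6 tiles were called against 7 in the same samples without the block. Samples that share a replicate number did not deviate together (correlations of -0.11 to 0.23), so the numbers do not pair them. The limit on CpGs present in all 22 samples could not be fitted at Peg3/Usp29, Peg10/Sgce, Snrpn and Impact, nor 20 reads at Peg3/Usp29. Reads limit Peg3/Usp29, which had no fit at 20 reads, and Control 2 had too few reads at Peg10/Sgce and Snrpn, as Control 6 had at Peg3/Usp29.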
